A study of Mus musculus with 7 samples.

Results

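The 33 genes described here act in G2 and M phase, the stretch of the cell cycle in which duplicated chromosomes are condensed, attached to the spindle and parted. They were taken by name from a gene table of 48526 genes, and all 33 were found. The RNA was that of the dissected heart region of mouse embryos at embryonic day 8.5, when the straight heart tube bends into a loop, and each embryo gave 1 library. The mutant group was 3 embryos of the genotype Hoxb1 Cre/+ ; Nodal flox/nul (mutant 1 male, mutants 2 and 3 female). The control group was 4 embryos of the genotype Hoxb1 +/+ ; Nodal flox/+ (controls 2 and 4 male, controls 1 and 3 female). All 7 embryos were of mixed background and all carried a flox allele of Nodal, the secreted signal of left identity. The Cre recombinase sits at the Hoxb1 locus, so recombination is limited to cells with a history of Hoxb1 expression. The controls lack Cre, the altered Hoxb1 allele and the nul allele of Nodal, which the mutants carry whether or not a cell recombines. By the file header the 3 males were of substage E8.5f and the 4 females of substage E8.5e, so sex and substage cannot be told apart.

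Recovered read totals ran from 7155994 to 15122057 per library. Nodal, the targeted gene, had 0 reads in each mutant, against 9, 3, 6 and 0 reads in controls 1 to 4, which leaves it near the detection limit. Lefty2, a target of Nodal signalling, had 5, 2 and 4 reads in mutants 1 to 3, against 717, 397, 307 and 227 reads in controls 1 to 4. Of 15599 genes tested with limma, 2 passed an adjusted p of 0.05 between genotypes. The 16 cardiomyocyte markers had no value of 0 in any embryo, and their mean log2 level was 10.22 to 11.46 in mutants and 10.06 to 11.74 in controls. Other tissue markers varied widely between embryos of 1 genotype: the mean log2 level of 18 neural tube markers was 4.43 to 7.37 in mutants and 3.78 to 7.38 in controls, and that of 10 yolk sac endoderm markers was 5.58 to 9.33 in mutants and 7.67 to 9.35 in controls. In a bulk sample, fewer cells in division and less transcript per dividing cell cannot be told apart.

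Entry into mitosis is driven by the kinase Cdk1 bound to cyclin A2 or a B-type cyclin, and is prepared by the phosphatase Cdc25c and the kinases Plk1 and Aurka. Kinetochores then bind spindle fibres under the watch of the spindle checkpoint, and the ubiquitin ligase known as the anaphase promoting complex ends mitosis by having cyclins and other proteins destroyed. In mouse and human cells most of these genes are transcribed late in the cycle. The DREAM complex represses them in resting cells, and B-Myb with FoxM1 activates them in G2, through a short promoter element called the CHR that often stands downstream of CCAAT boxes bound by the factor NF-Y. The embryonic heart tube grows by adding cells at its poles, and its early cardiomyocytes can divide.

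Promoter windows from RefSeq (GRCm38.p6), each reaching from 250 bases before to 50 after an annotated start, were matched by symbol for 28 of the 33 genes; Ccna2, Cdc25c, Aurkb, Tpx2 and Dlgap5 are without one. The 130 bases before the start are given for 8 genes, to show the shared arrangement of both elements and how far single genes depart from it. Capitals mark CCAAT boxes (CCAAT, or ATTGG on the complementary strand) and CHR-type letters (TTTGAA or TTCGAA, or TTCAAA on the complementary strand).
Cdk1, chr10:69352913-69353042, minus strand: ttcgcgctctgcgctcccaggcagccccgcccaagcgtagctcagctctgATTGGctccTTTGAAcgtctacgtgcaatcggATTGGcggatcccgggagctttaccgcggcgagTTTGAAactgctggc
Ccnb2, chr9:70421555-70421684, minus strand: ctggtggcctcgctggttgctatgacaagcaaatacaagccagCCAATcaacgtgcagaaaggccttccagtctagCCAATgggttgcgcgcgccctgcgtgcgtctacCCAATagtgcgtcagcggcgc
Top2a, chr11:99024190-99024319, minus strand: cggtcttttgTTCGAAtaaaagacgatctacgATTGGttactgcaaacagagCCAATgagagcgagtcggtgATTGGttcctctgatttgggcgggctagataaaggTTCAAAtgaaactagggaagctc
Mki67, chr7:135716380-135716509, minus strand: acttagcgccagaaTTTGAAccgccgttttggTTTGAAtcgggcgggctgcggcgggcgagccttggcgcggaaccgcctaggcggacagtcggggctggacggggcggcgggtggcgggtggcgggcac
Bub1, chr2:127831860-127831989, minus strand: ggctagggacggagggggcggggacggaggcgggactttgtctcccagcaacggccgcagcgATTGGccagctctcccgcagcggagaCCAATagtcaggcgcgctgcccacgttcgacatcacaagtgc
Bub1b, chr2:118598081-118598210, plus strand: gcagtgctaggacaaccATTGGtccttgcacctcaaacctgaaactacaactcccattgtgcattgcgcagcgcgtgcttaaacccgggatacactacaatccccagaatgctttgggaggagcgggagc
Kif11, chr19:37376252-37376381, plus strand: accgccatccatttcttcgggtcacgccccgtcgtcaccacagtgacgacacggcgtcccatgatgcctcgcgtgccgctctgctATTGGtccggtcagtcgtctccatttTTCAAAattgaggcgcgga
Cdc20, chr4:118437344-118437473, minus strand: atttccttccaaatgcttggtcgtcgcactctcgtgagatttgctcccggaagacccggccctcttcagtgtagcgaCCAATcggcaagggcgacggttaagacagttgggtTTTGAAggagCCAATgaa

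The last base of each stretch is the base before the start. In GENCODE M21 the gene begins further upstream for Cdk1, Bub1 and Cdc20, so that their last 26, 6 and 9 bases lie in its gene model. In Cdk1, Top2a, Kif11 and Cdc20 CHR-type letters begin 15, 23, 19 and 18 bases before the start, and in each of these 4 genes a CCAAT box lies further upstream. Ccnb2 has 3 CCAAT boxes, beginning 87, 54 and 21 bases before the start. Of its CHR-type letters 1 copy lies just past the start and 1 lies upstream of the printed stretch, 167 bases before the start. In Mki67 both copies of TTTGAA are further out, at 116 and 98 bases. The CCAAT boxes of Mki67 all lie upstream of the printed stretch, further out than both copies. Bub1 has 2 CCAAT boxes in the stretch and Bub1b has 1, and both have CHR-type letters after the start. Bub1b also has a copy upstream of the stretch, 188 bases before the start.

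CHR-type letters were found on either strand in the windows of 23 of the 28 matched genes (82.1%), against 21.7% of 27025 genes. Within 50 bases either side of the start they were found in 21 of 28 (75.0%), against 5.29% of all genes. CCAAT was found in 21 of 28 (75.0%), against 41.1% of all genes, and at 2 or more positions in 16 of 28 (57.1%), against 13.3%. Both kinds of letters stood in the window of 19 of 28 genes (67.9%), against 8.61%. The windows of Ccnb1, Cenpe, Nuf2, Birc5 and Nusap1 hold no CHR-type letters. The E2F-type letters TTTGGCGC or TTTCGCGC, looked for on both strands, were found in the window of Cdk1 only, which is 3.57% of the matched genes against 0.929% of all. A match of letters is a description of the sequence, not evidence of a bound factor, and the genes of other cell cycle steps are part of the 27025.

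**Figure D1:**
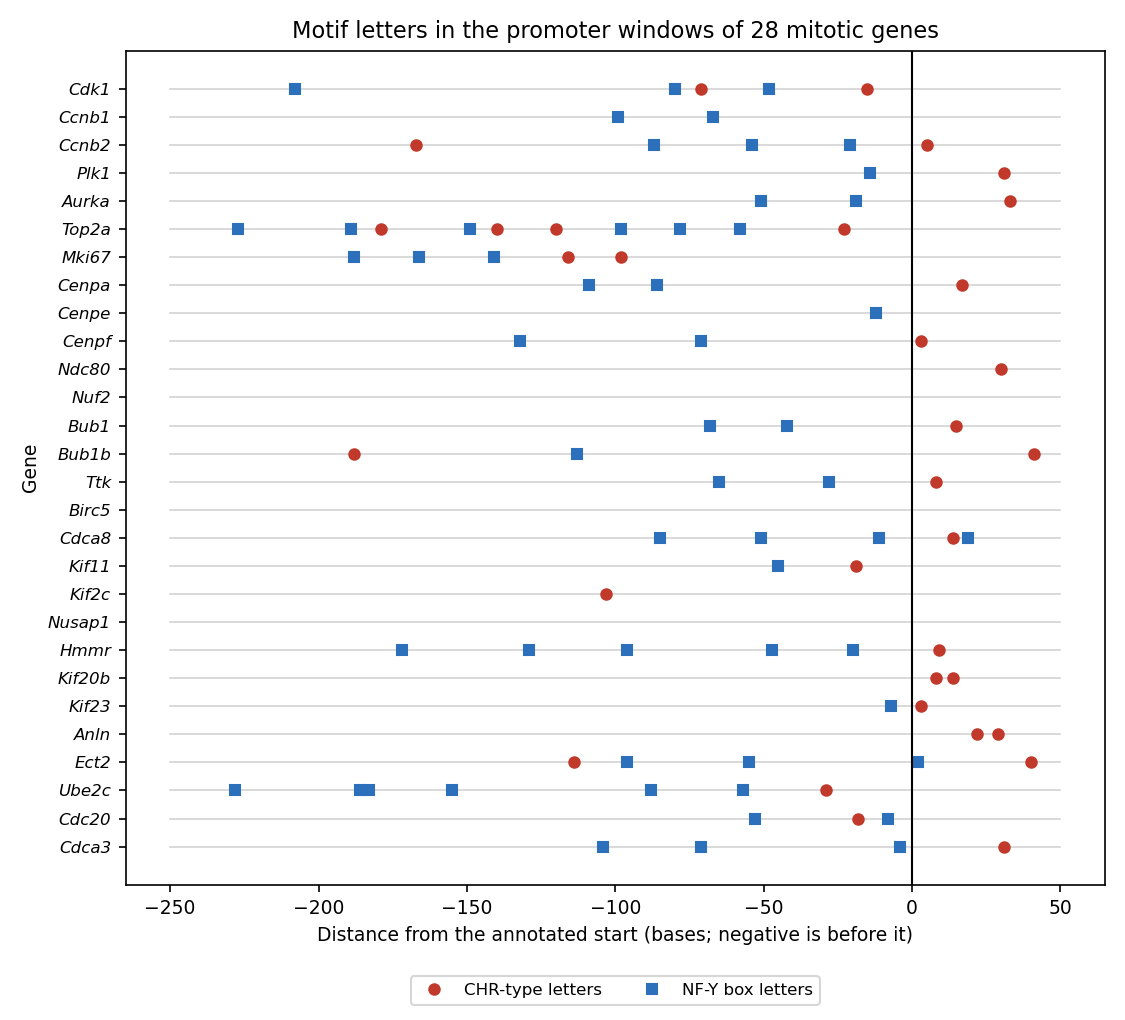
Positions of CHR-type letters (circles) and NF-Y box letters (squares) in the promoter windows of 28 mitotic genes; the horizontal axis is the distance in bases from the annotated start, negative before it. Of 33 CHR-type positions 15 lie before the start and 18 after it, while 53 of 55 CCAAT positions lie before it.

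Every one of the 33 genes was well above the filter on low values (a normalised count, the deposited read count divided by 1 size factor per library, of at least 10 in at least 3 libraries). Their mean normalised counts ran from 401 for Cdc25c to 10233 for Mki67. Per base of exon the order was different. TPM were recovered reads over exon length, brought to the same total in every library. The length was that of all annotated exons of a gene, each base counted once. A gene with many annotated transcripts can thus get a lower TPM. The highest mean over 7 embryos was that of Cdc20, which activates the anaphase promoting complex (354 TPM). Next came Plk1 (332 TPM), the proliferation marker Mki67 (303 TPM), the ubiquitin-conjugating enzyme Ube2c (277 TPM) and the DNA-untangling enzyme Top2a (267 TPM). Their ranges over the embryos overlapped between neighbours in this order: 296 to 398 TPM for Cdc20, 316 to 363 TPM for Plk1 and 256 to 338 TPM for Mki67. At the low end stood Cdc25c (24.3 TPM), the microtubule-binding kinetochore protein Ndc80 (28.9 TPM) and its partner Nuf2 (36.0 TPM).

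The 33 genes varied little between embryos. The fold between the highest and the lowest embryo ran from 1.08 for the spindle assembly factor Tpx2 to 1.36 for the spindle motor Kif11. The SD of the log2 level between embryos of 1 genotype had a median of 0.08 over the 33, against 0.19 over all genes tested and 0.11 over the 6157 genes with a mean level in the same range. It was 0.66 for the cardiomyocyte markers and 1.50 for the neural tube markers tested. Over other cell cycle lists the median ran from 0.08 (further genes of mitotic entry and exit) to 0.17 (G1 cyclins, their kinases and inhibitors). It was 0.08 for the anaphase promoting complex and 0.09 for DNA replication, so a low spread is not particular to the 33. The spread from counting reads alone would be 0.04 at the median of the 33. For Nusap1, a protein that bundles spindle fibres, the measured SD was 1.17 times the counting error, and for Mki67 it was 10.3 times.

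**Figure D2:**
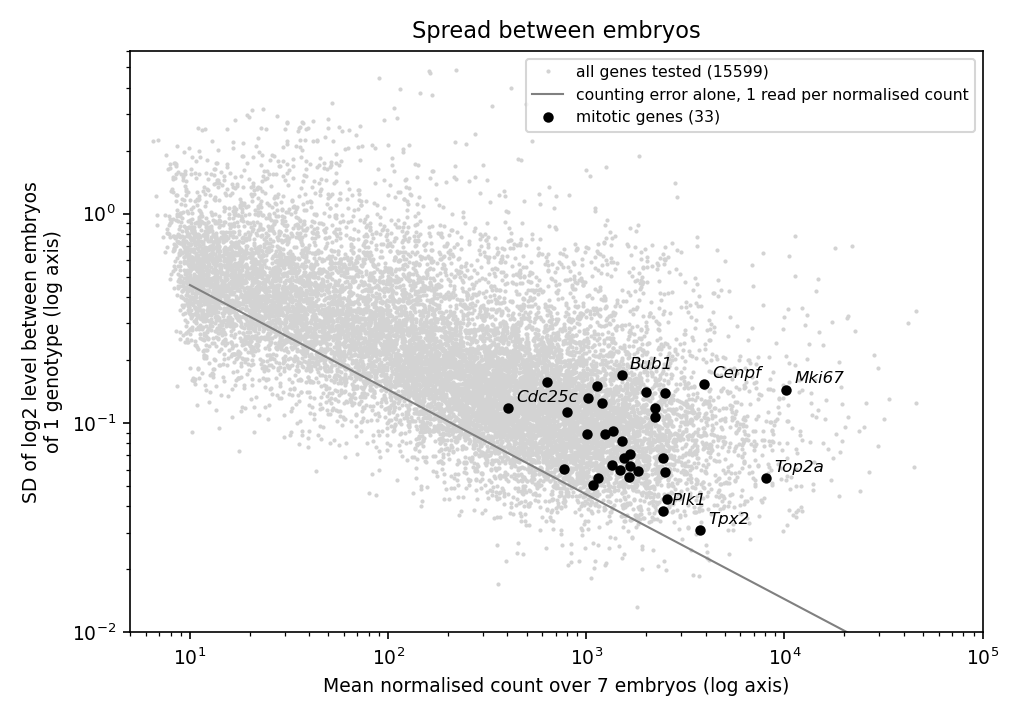
SD of the log2 level between embryos of 1 genotype against the mean normalised count over 7 embryos, both on log axes, for 33 mitotic genes (black) and all 15599 genes tested (grey); the line is counting error alone. The mitotic genes run from 0.03 (Tpx2) to 0.17 (Bub1).

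As a group the 33 genes took 0.602%, 0.650% and 0.630% of all reads in mutants 1 to 3, against 0.600%, 0.613%, 0.645% and 0.566% in controls 1 to 4. The mean log2 level was 10.71, 10.79 and 10.74 in the mutants and 10.71, 10.71, 10.72 and 10.62 in the controls. Control 4, the library with the fewest reads, was the lowest embryo for 15 of the 33 genes and the highest for 0. Mutant 2, the library with the most reads, was the highest for 11 and the lowest for 0. The part of depth in this order was not tested.

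**Figure D3:**
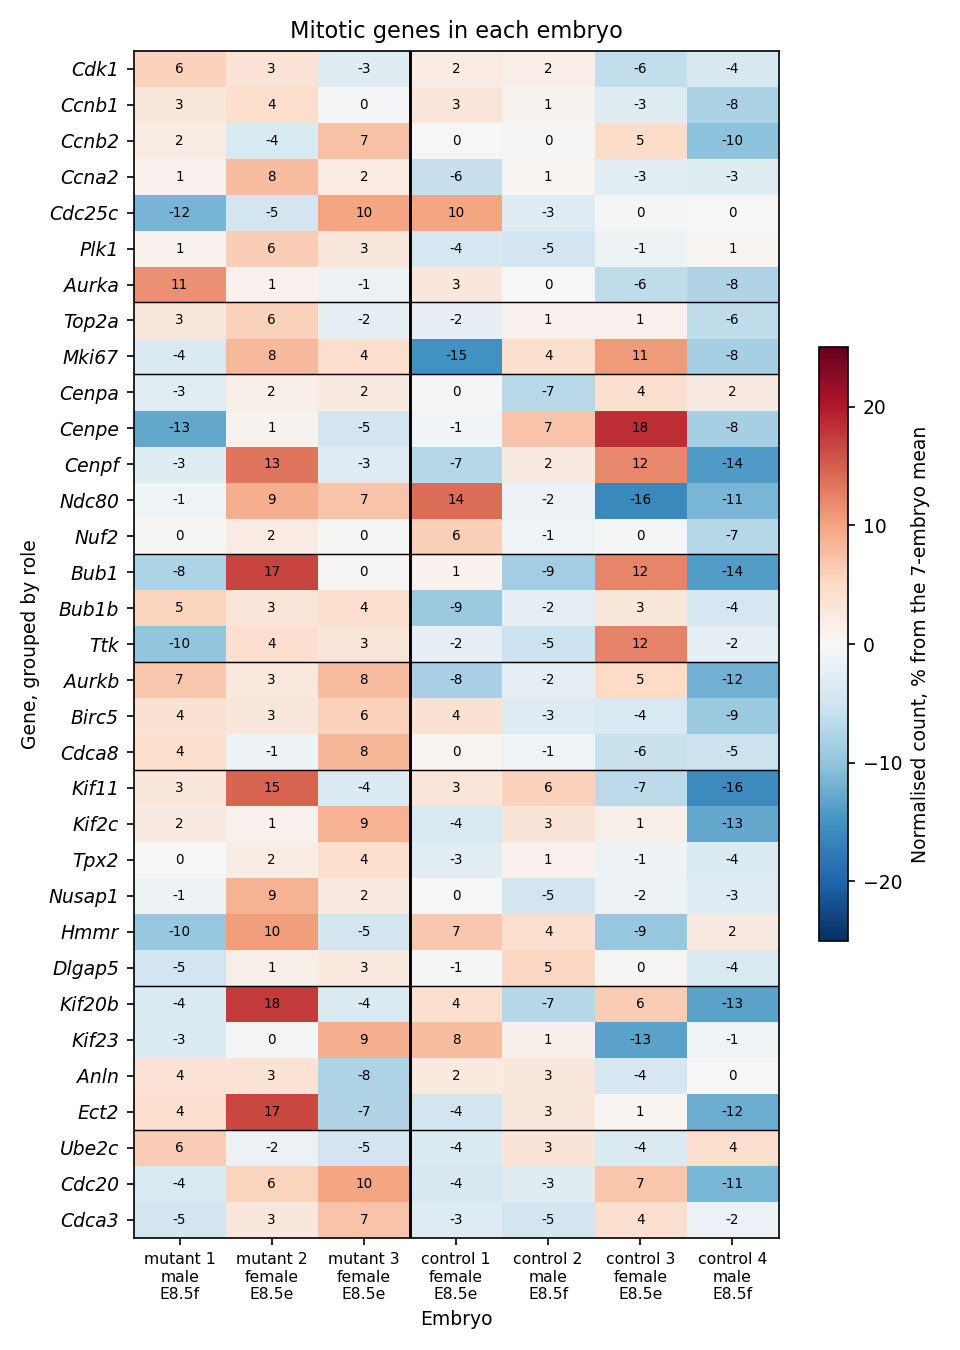
Normalised count of each mitotic gene in each embryo, as the percent difference from its mean over 7 embryos (colour and printed number), with mutants left of controls and genes grouped by role. The darkest cells reach 18% above and 16% below the mean, and control 4 is the lowest embryo for 15 genes.

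The main question of the design is whether the cardiac region of mutants differs from that of controls. No mitotic gene passed the test: 0 of 33 had an adjusted p under 0.05 with limma, against 0.0128% of all genes tested, and edgeR and DESeq2 on recovered reads also called 0. At an unadjusted p under 0.05, limma had 0 of 33, against 3.83% of all genes. The smallest adjusted p of a member was 0.967. The log2 difference was above 0 for 26 of 33 genes, with a median of 0.06 (4.39%), and ran from -0.14 for the kinetochore motor Cenpe to 0.15 for the kinase Aurkb. Over all genes 51.7% were above 0, and in the level range of the members 63.3% were, with a median of 0.03. The 95% intervals of the 33 single differences lay within -0.35 to 0.39, the outer bounds of the widest of them, and those of single genes were often narrower.

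Among the 7 genes of mitotic entry, 6 had a difference above 0 and the median was 0.06. Cdk1 (ENSMUSG00000019942, chromosome 10, 69335146 to 69352938), the kinase itself, had normalised counts of 1759, 1720.1 and 1613 in mutants, against 1697, 1691, 1561 and 1597 in controls. Cyclin B1, Ccnb1 (ENSMUSG00000041431, chromosome 13, 100778650 to 100786570), had 1868, 1896 and 1808 in mutants, against 1869, 1829, 1761 and 1672 in controls. For both genes the groups overlapped, and the log2 differences were 0.05 (SE 0.06) and 0.06 (SE 0.06). Cyclin A2, Ccna2 (ENSMUSG00000027715, chromosome 3, 36564865 to 36572150), had 2585, 2755 and 2609.6 in mutants, against 2412, 2575, 2489.5 and 2480.0 in controls. Plk1 (ENSMUSG00000030867, chromosome 7, 122159439 to 122169873), a kinase needed from entry to exit, had 2475, 2603 and 2519 in mutants, against 2345, 2332, 2419 and 2469 in controls. In these 2 genes each mutant stood above each control, by 9.98 normalised counts at the closest point for Ccna2 and by 6.37 for Plk1. Those gaps are smaller than the counting SD of the highest control, 48.6 for Ccna2 and 63.5 for Plk1. The log2 differences were 0.09 (SE 0.05) and 0.08 (SE 0.05), with an adjusted p of 0.967 by limma for each. Cdc25c was the 1 entry gene below 0, at -0.06 (SE 0.09).

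Top2a (ENSMUSG00000020914, chromosome 11, 98992943 to 99024189) had 8305, 8553 and 7900.3 normalised counts in mutants, against 7923, 8162, 8166 and 7561 in controls. Mki67 (ENSMUSG00000031004, chromosome 7, 135689784 to 135716361), which coats mitotic chromosomes and marks cycling cells, had 9858, 11063 and 10692 in mutants, against 8684, 10635, 11321 and 9379 in controls. The groups overlapped for both genes. Mki67 differed more among the controls, from 8684 to 11321, than between the group means of 10538 in mutants and 10005 in controls. Its log2 difference was 0.08 (SE 0.10), and that of Top2a was 0.05 (SE 0.05).

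Of the 5 kinetochore and centromere genes 4 were above 0, with a median of 0.02. Cenpe (ENSMUSG00000045328, chromosome 3, 135212537 to 135273611), the motor that moves chromosomes to the spindle equator, had 2189.8, 2533 and 2389 normalised counts in mutants, against 2495, 2689, 2974 and 2303 in controls. Ndc80 (ENSMUSG00000024056, chromosome 17, 71496100 to 71526857) had 624, 687 and 675 in mutants, against 718, 621, 529 and 558 in controls. Both genes overlapped between groups, in opposite directions on average, with log2 differences of -0.14 (SE 0.09) for Cenpe and 0.14 (SE 0.11) for Ndc80. Nuf2, which pairs with Ndc80 in 1 complex, differed by 0.02 (SE 0.06), the centromeric histone Cenpa by 0.01 (SE 0.06) and the large kinetochore protein Cenpf by 0.06 (SE 0.10).

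The spindle checkpoint, which holds back anaphase until every chromosome is attached, was represented by 3 genes with a median of 0.08. Bub1b (ENSMUSG00000040084, chromosome 2, 118598211 to 118641591), a component of the inhibitor of Cdc20, had 2622, 2563 and 2592 normalised counts in mutants, against 2257, 2429, 2556 and 2382 in controls. It was the third gene in which each mutant stood above each control, by 7.10 normalised counts against a counting SD of 53.5 in the highest control. Its log2 difference was 0.11 (SE 0.06; adjusted p = 0.967 by limma). The kinase Bub1 (ENSMUSG00000027379, chromosome 2, 127801122 to 127831865) had 1391, 1761 and 1509.7 in mutants, against 1519, 1376, 1691 and 1296 in controls. Bub1 varied most within genotypes of all 33 genes, and the groups overlapped throughout, with a log2 difference of 0.08 (SE 0.11). The checkpoint kinase Ttk differed by -0.02 (SE 0.08).

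Ccna2, Plk1 and Bub1b were thus 3 of 33 genes with all mutants above all controls, where 3.7% of all genes and 6.48% of those in the level range showed this, and 0 of 33 had all mutants below all controls, against 2.08% of all genes and 0.845% in the level range. Under scaling by the library total 0 of 33 members had all mutants above all controls, against 2.72% of all genes, and under TMM scaling Plk1 and Bub1b did, against 3.42%.

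The chromosomal passenger complex corrects faulty attachments and then acts in cytokinesis. Its 3 genes had the highest median of the 8 roles, 0.11, and all 3 were above 0, although 0 of them passed the test. Aurkb (ENSMUSG00000020897, chromosome 11, 69045647 to 69051664), its kinase, had 1320.0, 1269.5 and 1332 normalised counts in mutants, against 1137, 1208, 1297 and 1088 in controls. Birc5 (ENSMUSG00000017716, chromosome 11, 117849251 to 117855743), also called survivin, had 1408, 1393 and 1433 in mutants, against 1407, 1313, 1303 and 1230.2 in controls. In each gene 1 control reached into the mutant range, control 3 for Aurkb and control 1 for Birc5. The log2 differences were 0.15 (SE 0.07) for Aurkb, 0.11 (SE 0.06) for Birc5 and 0.10 (SE 0.06) for borealin, Cdca8. Aurkb had the smallest p of all members with limma, 0.0704 before adjustment. It averaged 1307 ± 33.3 normalised counts in mutants and 1183 ± 91.1 in controls (SD, n = 3 and n = 4).

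Of the 6 spindle motors and assembly factors 4 were above 0, with a median of 0.07. Kif2c (ENSMUSG00000028678, chromosome 4, 117159639 to 117182639), which takes spindle fibres apart at their ends, had 1388, 1372 and 1475 normalised counts in mutants, against 1307, 1402, 1378 and 1184 in controls. Nusap1 (ENSMUSG00000027306, chromosome 2, 119618298 to 119651244) had 1063, 1171 and 1103 in mutants, against 1077, 1026, 1061 and 1042 in controls. Groups overlapped in both, with log2 differences of 0.10 (SE 0.07) for Kif2c and 0.08 (SE 0.06) for Nusap1. Kif11, which pushes the spindle poles apart, differed by 0.12 (SE 0.10), Tpx2 by 0.05 (SE 0.05), the microtubule-associated Hmmr by -0.03 (SE 0.09) and the spindle-stabilising Dlgap5 by -0.01 (SE 0.06).

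Of the 4 cytokinesis genes 3 were above 0, with a median of 0.07. Ect2 (ENSMUSG00000027699, chromosome 3, 27097222 to 27153878), the exchange factor that switches on RhoA at the cleavage site, had 1060.3, 1186 and 941 normalised counts in mutants, against 971, 1045, 1022 and 892 in controls. Kif20b (ENSMUSG00000024795, chromosome 19, 34922361 to 34975745), a kinesin of the late midbody, had 1085, 1324 and 1086 in mutants, against 1171, 1045, 1199 and 975 in controls. In both genes mutant 2 was the highest embryo and control 4 the lowest. The log2 differences were 0.11 (SE 0.09) for Ect2, 0.08 (SE 0.10) for Kif20b, 0.05 (SE 0.08) for the midzone kinesin Kif23 and -0.01 (SE 0.06) for anillin, Anln.

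Among the 3 genes of protein destruction through ubiquitin, 2 were above 0, with a median of 0.04. Cdc20 (ENSMUSG00000006398, chromosome 4, 118432901 to 118437352), the checkpoint's target, had 2135, 2343 and 2439 normalised counts in mutants, against 2129, 2152, 2375 and 1965 in controls. Cdca3 (ENSMUSG00000023505, chromosome 6, 124829547 to 124833701), which takes part in the destruction of the kinase Wee1, had 1477, 1594 and 1658 in mutants, against 1499, 1477, 1612 and 1525 in controls. Groups overlapped in both, and the log2 differences were 0.10 (SE 0.08) for Cdc20 and 0.04 (SE 0.06) for Cdca3. Ube2c had the smallest difference of the 33, -0.0003 (SE 0.06), with mean normalised counts of 2425 ± 133 in mutants and 2424 ± 102 in controls (SD, n = 3 and n = 4).

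**Figure D4:**
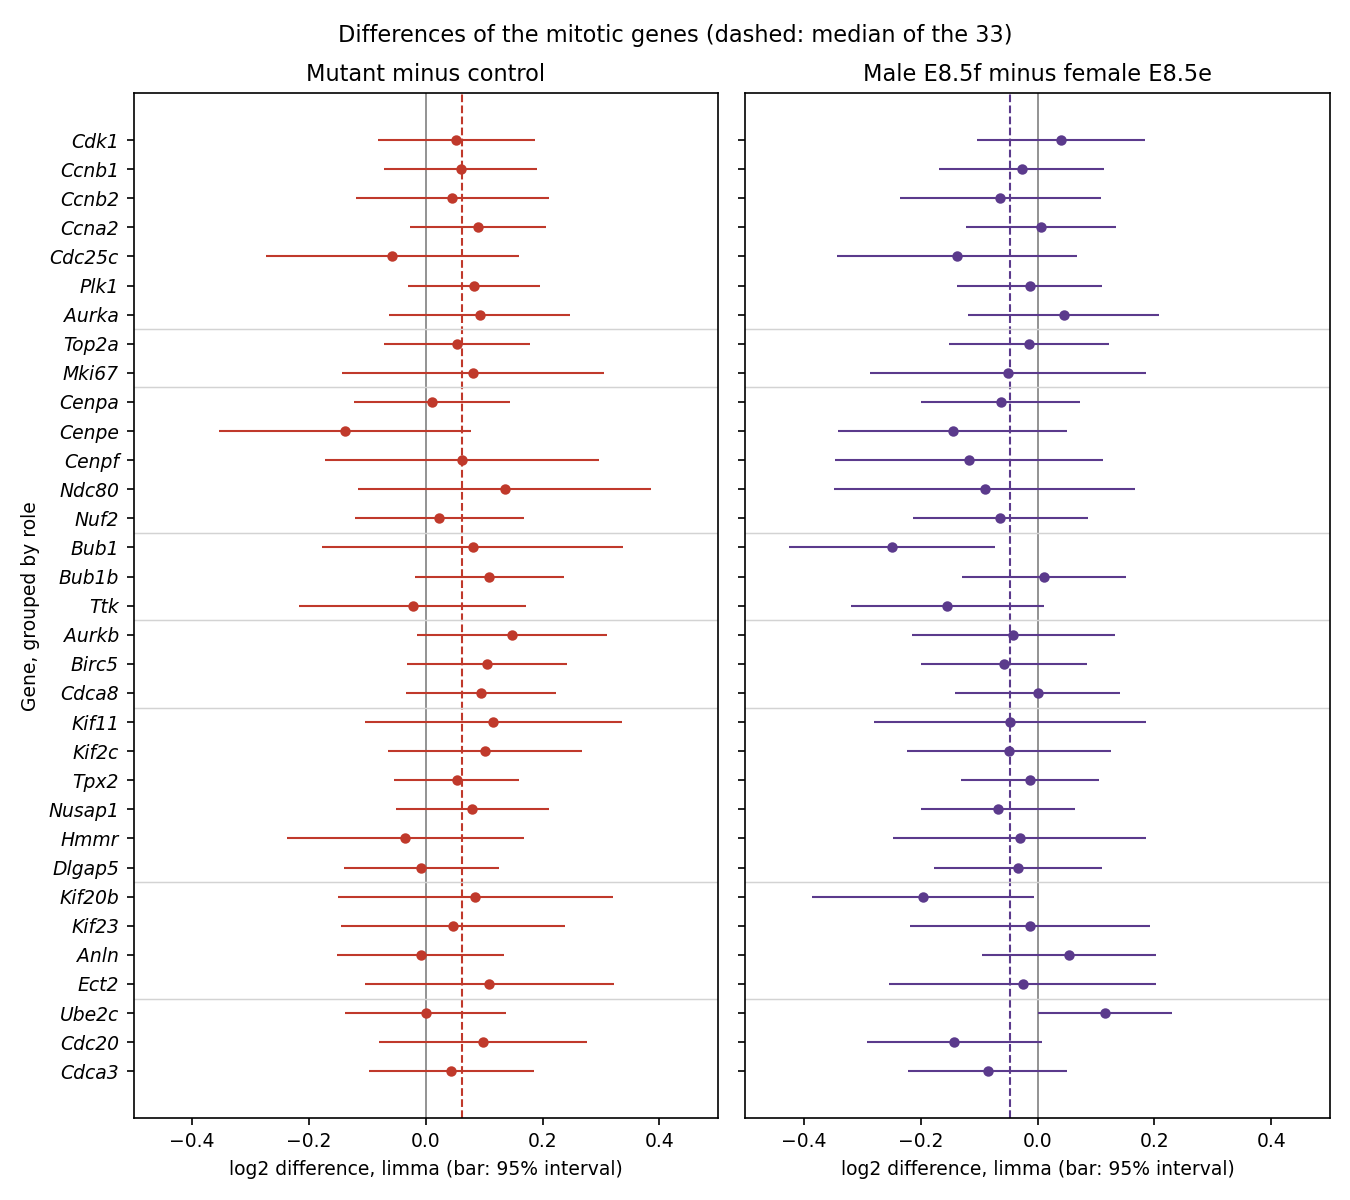
Log2 differences of 33 mitotic genes with 95% intervals (limma), mutant minus control on the left and male E8.5f minus female E8.5e on the right, grouped by role; the dashed lines are the medians, 0.06 and -0.05. Every interval on the left includes 0, and on the right those of Bub1, Kif20b and Ube2c do not.

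The authors' deposited table gives ratios of mutant to control means between 0.906 and 1.11 for the 33 genes, with 27 above 1, and its smallest p for a member is 0.104. None of the 33 is in the authors' deposited table of selected genes. By its name that selection was cut on fold change, and ratios this near 1 may not reach the cut. The absence of the 33 from it is therefore not a separate result. Within females alone, 2 mutants against 2 controls, 27 of 33 genes were above 0 with a median of 0.06. Among males, where there is 1 mutant and 2 controls, 24 were above 0 with a median of 0.05.

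Other genes of mitosis, in lists chosen with results known, had 0 genes past the threshold with limma. Only 1, Cdc25a, had an unadjusted p under 0.05 by limma, against 3.83% of all genes. Of 18 further spindle motors and midzone genes 14 were above 0 (median 0.05), of 25 further kinetochore and centromere genes 12 (median 0.00), of 13 further genes of the checkpoint and of cohesion release 11 (median 0.08), and of 14 further genes of mitotic entry and exit 12 (median 0.05). Of 16 subunits and partners of the anaphase promoting complex 12 were above 0 (median 0.04), and of 8 condensin genes 7 (median 0.03). Cdc25a, the phosphatase that releases Cdk2 and Cdk1, differed by 0.14 (SE 0.05), with 1745, 1841 and 1778 normalised counts in mutants, against 1684, 1660.3, 1605 and 1544 in controls. The kinesin Kif22 differed by 0.10 (SE 0.06), the kinetochore subunit Spc24 by 0.18 (SE 0.08), separase, Espl1, by 0.15 (SE 0.07) and the condensin subunit Ncaph by 0.09 (SE 0.06). Cdc16 of the anaphase promoting complex lay on the other side, at -0.11 (SE 0.06). The adjusted p was 0.967 by limma for each of these genes.

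Of 16 genes of FoxM1, B-Myb, the DREAM complex and NF-Y, 13 were above 0 with a median of 0.08. Foxm1 had 2271, 2303 and 2403 normalised counts in mutants, against 1957, 2194, 2238 and 1984 in controls. In the deposited scaling each mutant was above each control, with a log2 difference of 0.15 (SE 0.07) and an adjusted p of 0.967 by limma. Foxm1 was named because it had the smallest p of its list, which favours groups that do not overlap. All mutants lay above all controls in 3.7% of all genes and in 6.48% of those in the level range. The DNA-binding DREAM subunit Lin54 differed by 0.14 (SE 0.09).

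Of the lists of earlier cell cycle steps, that of DNA replication had a higher median than the mitotic one. The median of the G1 list, 0.07, was near the mitotic 0.06. It lay below the 0.08 of the further checkpoint genes and of FoxM1, B-Myb, DREAM and NF-Y. Both lists of earlier steps also had 0 genes past the threshold by limma. Of 30 genes of DNA replication 29 were above 0 with a median of 0.13, and 8 had an unadjusted p under 0.05 by limma, against 3.83% of all genes. Cdc6, which loads the replicative helicase, had 1358, 1387 and 1203 normalised counts in mutants, against 1126, 1169.8, 1117 and 1091 in controls (log2 0.22, SE 0.07; adjusted p = 0.967 by limma). The mean log2 level of the replication genes was 10.27 to 10.31 in mutants and 10.12 to 10.28 in controls, so the groups overlapped through control 3. Of 17 G1 cyclins, their kinases and inhibitors 11 were above 0 with a median of 0.07, and 3 had an unadjusted p under 0.05 by limma, against the same 3.83%. The G1 cyclin Ccnd2 had 6272, 6209 and 7351 in mutants, against 4060, 4765, 5575 and 4932 in controls (log2 0.46, SE 0.11), and the cell cycle inhibitor Cdkn1b had 482, 483 and 491 in mutants, against 547, 583, 537 and 618 in controls (log2 -0.23, SE 0.07). For both genes the groups did not overlap, and the adjusted p was 0.967 by limma. Both were named because they had the smallest p of their list, which favours groups that do not overlap. Over all genes 3.7% had all mutants above all controls and 2.08% had all mutants below. Whether the mitotic list differs from the replication list was not tested.

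Most marker lists of the tissues in the dissected piece had a median further from 0 than the mitotic genes, the foregut endoderm list excepted, and the mean level of each list overlapped between groups. All 16 cardiomyocyte markers were below 0 (median -0.28) and all 16 neural tube markers tested, of 18 listed, were above 0 (median 1.05). Of 9 paraxial mesoderm markers tested, of 12 listed, 8 were above 0 (median 0.49). All 10 yolk sac endoderm markers were below 0 (median -0.85), 9 of 10 endothelial markers were below 0 (median -0.20), 3 of 4 primitive erythroid markers tested, of 8 listed, were below 0, and 4 of 9 foregut endoderm markers were above 0 (median -0.01). The neural tube list had 2, 0 and 0 genes at 0 in mutants 1 to 3 and 2, 4, 0 and 5 in controls 1 to 4. When the fit also held each embryo's mean neural tube level, 26 of 33 mitotic genes were above 0 and their median was 0.05.

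**Figure D5:**
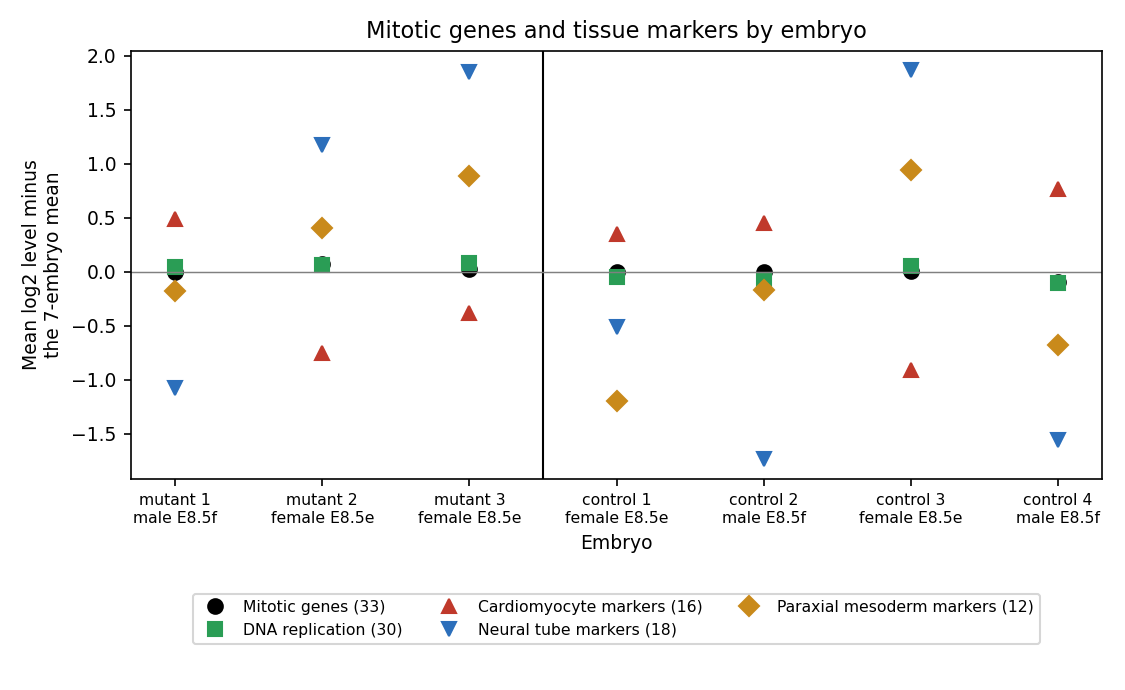
Mean log2 level of 33 mitotic genes, 30 DNA replication genes and 3 tissue marker lists in each embryo, as the difference from the mean over 7 embryos, mutants left of controls. The mitotic mean stays between 10.62 and 10.79, while the neural tube mean runs from 3.78 to 7.38.

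Between males of substage E8.5f and females of substage E8.5e, in a fit that also holds genotype, 0 of 33 mitotic genes passed with limma, against 0.0449% of all genes (7 genes), and edgeR and DESeq2 on recovered reads also called 0 members. An unadjusted p under 0.05 was reached by 3 of 33, Bub1, Kif20b and Ube2c, against 10.5% of all genes. Most differences were below 0: 7 of 33 genes were above 0, with a median of -0.05, where 51.6% of all genes and 56.2% of those in the level range were above 0. By role, 0 of 5 kinetochore genes and 0 of 6 spindle motors and assembly factors were above 0, and 3 of 7 entry genes were.

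Bub1 had 1391, 1376 and 1296 normalised counts in the 3 males (mutant 1, controls 2 and 4), against 1761, 1509.7, 1519 and 1691 in the 4 females (mutants 2 and 3, controls 1 and 3). Each male was below each female, with a log2 difference of -0.25 (SE 0.08; adjusted p = 0.403 by limma). Kif20b had 1085, 1045 and 975 in males, against 1324, 1086, 1171 and 1199 in females, and again each male was below each female, mutant 3 by the least (log2 -0.20, SE 0.08; adjusted p = 0.462 by limma). Ube2c and Ttk are named because of their values: Ube2c had 2573, 2501 and 2524 in males, against 2388, 2314, 2335 and 2337 in females. It was the 1 member with each male above each female (log2 0.12, SE 0.05; adjusted p = 0.472 by limma). Ttk had 718, 754 and 779 in males, against 829.6, 820.4, 779 and 895 in females (log2 -0.15, SE 0.07; adjusted p = 0.491 by limma). Males and females came within 1 normalised count of each other for Ttk, at 778.7 in control 4 and 779.2 in control 1.

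All males below all females was thus found for 3 of 33 genes, against 4.62% of all genes and 3.61% in the level range, and all males above all females for 1 of 33, against 5.64% of all genes and 6.82% in the level range. Under scaling by the library total all males were below all females for 7 members, against 6.57% of all genes, and above them for 1, against 3.97%. Under TMM scaling they were below for 6 members, against 5.09% of all genes, and above for 1, against 4.88%. Some tissue marker lists followed the same split: the mean log2 level of neural tube markers was 3.78 to 4.43 in males and 5.01 to 7.38 in females, that of cardiomyocyte markers was 11.42 to 11.74 in males and 10.06 to 11.32 in females, and that of primitive erythroid markers was 3.88 to 4.15 in males and 1.80 to 3.78 in females. The mean levels of the yolk sac endoderm, paraxial mesoderm, endothelial and foregut endoderm lists overlapped between the sexes. When the fit also held the mean neural tube level, 15 of 33 mitotic genes were above 0 and the median was -0.02. The log2 difference of Bub1 was then -0.17, with an adjusted p of 0.726 by limma. The neural tube level did not overlap between the sexes, so this fit can hardly tell that level from sex.

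Of the other cell cycle lists 0 genes passed the test in this contrast, and their directions were mixed: 21 of 25 further kinetochore genes were below 0 (median -0.11), among them Cenpp (-0.36, SE 0.13), and 26 of 30 replication genes were (median -0.06), while 11 of 17 G1 cyclins, their kinases and inhibitors were above 0 (median 0.08). Above 0 were also 9 of 16 genes of the anaphase promoting complex (median 0.02) and 8 of 16 genes of FoxM1, B-Myb, DREAM and NF-Y (median 0.00). Below 0 were 14 of 18 further spindle motors and midzone genes, 8 of 13 of the checkpoint and cohesion release, 9 of 14 of mitotic entry and exit, and 6 of 8 condensin genes. The checkpoint genes Zwilch (-0.23, SE 0.08) and Kntc1 (-0.25, SE 0.10), which act with Zw10 at the kinetochore, were below 0 as well. The cell cycle inhibitor Cdkn1c stood at 0.58 (SE 0.22), with 5041, 5663 and 6364 normalised counts in males, against 3580.2, 3574, 5570.2 and 2664 in females. The groups overlapped through control 1, a female above the male mutant 1. The adjusted p of Cenpp, Zwilch, Kntc1 and Cdkn1c lay between 0.426 and 0.453 by limma.

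Some counts may hold reads of a neighbour or a copy. Exons of Ccna2 overlap those of Exosc9 on the opposite strand over 510 bases, and Cdc25c, Plk1, Cdca8, Nusap1, Ube2c and Cdc20 also overlap a gene on the opposite strand. The kit keeps strand, but no source used here says whether the counting did. The annotated cyclin pseudogenes Ccnb1-ps and Ccnb2-ps had mean normalised counts of 66.9 and 19.9, and reads shared with them could have been split.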

How the data were processed

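Polyadenylated RNA was sequenced from 20 ng of total RNA per embryo, with 15 to 18 PCR cycles and paired reads of 130 bases, per the labels' protocols. HISAT2, featureCounts, Subread, DESeq2, edgeR, limma and GRCm38 appear, per the submitters' processing notes; their settings and the annotation are not given in these sources. The deposited values are normalised signal: each library's gene counts over 1 size factor, since 100% of values above 0 were whole multiples of a library's step within a tolerance of 0.1. Whole reads were recovered by that division, 7155994 to 15122057 per library (median 12623459). A table deposited by the authors also gives a ratio of group means and a p-value per gene, per the file headers.

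The planned choice between counts and normalised values fell on limma 3.58.1 (R 4.3.3) on log2(normalised count + 1), which understates changes of low genes. The test covered the 15599 genes that reached a normalised count of 10 in 3 or more libraries, with Benjamini-Hochberg adjustment over all of them and a threshold of 0.05. The fit had genotype alone, and for the second contrast genotype and sex. Alternatives included edgeR 4.0.16 and DESeq2 1.42.0 on recovered reads, other scalings, filters, pseudocounts and covariates, and leaving out each embryo. TPM used GENCODE M21 exon lengths. The code was tested on simulated data with 200 genes changed. P-values measure the spread between embryos, which are single libraries.

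The 33 members and 16 lists (240 genes) were chosen with earlier results of these data known. Values in every embryo are given for the 2 members with the smallest p in each of 8 roles, plus Cdk1, Ccnb1, Top2a and Mki67. From each further list up to 2 genes per contrast are named, those with the smallest p, some with their values in every embryo. Members with groups that do not overlap were named after their values were seen. Promoter windows are RefSeq's (GRCm38.p6), with letters looked for on both strands.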

Additional observations from a re-analysis of the deposited data

Results flagged for a closer look

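In female embryos Bub1b had 2257 normalised counts in control 1, while the other 3 females lay between 2556 and 2592. The gap was large against the range of the 4 females (0.890 of it), past a cut-off that chance passes in about 1 in 20 groups. All 33 members were searched this way, among the controls and among the females, and only this group was flagged. A flag of this kind is therefore to be looked for by chance alone. With each of the 7 embryos left out in turn, the Bub1b difference between genotypes was 0.08 to 0.14 on the log2 scale.

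Dlgap5 was higher in both mutant females than in both control females (log2 0.031) and lower in the 1 mutant male than in both control males (log2 -0.080). All 33 members were searched for such an opposite split, and Dlgap5 alone had it. With so few embryos it can arise by chance, and its share over all genes was not counted. The difference between the sexes was not tested.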

How the results depend on the processing

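No paired analysis was possible because the labels give no replicate numbers that groups share. The count of mitotic genes past the threshold was 0 under all 18 alternatives of each contrast, and their median kept its sign. Between genotypes 26 members above 0 became 24 to 30, and the median 0.04 to 0.09, on leaving out single embryos; 20 of 33 members kept their sign throughout, and the smallest adjusted p was 0.266 (Aurkb without control 3, limma). For males against females 7 of 33 kept their sign, and the smallest adjusted p was 0.117 (Bub1 without control 1, limma). Over all genes, 2 were called between genotypes; edgeR called 1, DESeq2 8, the fits that held sex or the neural tube level 1 each, females alone 0, and single embryos left out 1 to 9, with 9 without control 3 and 1 without each of the others. For males against females 7 genes were called, 177 with DESeq2, 13 without the genotype term and 5 to 681 on leaving out single embryos, with 681 without control 1. Of the 33 members, 7 were above 0 in that contrast; the count was 4 under library-total scaling, 4 without the genotype term, 11 in controls alone, 15 when the neural tube level was fitted and 6 to 13 without single embryos (13 without control 4, 11 without mutant 1). Counts of members with groups that do not overlap were added after the data were seen. Under the library total 0 members had all mutants above all controls, in place of 3 (all genes 2.72% in place of 3.7%). All males lay below all females for 7 members under the library total and 6 under TMM, in place of 3 (all genes 6.57% and 5.09%, in place of 4.62%). The cause was not tested in these cases, except that fits on fewer embryos have less data. The spread between embryos, which includes counting error, was 1.17 (Nusap1) to 10.3 (Mki67) times that error, so depth as well as the number of embryos limits the precision of the members near the lower end.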
